A study of Homo sapiens with 2 samples.

Results

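The genes described here are hypoxia-response genes outside glycolysis, chosen by name from a list of 38, of which 37 had a row under that name among the 27655 genes of the authors' deposited table. The remaining one, ERO1LB, an endoplasmic reticulum oxidase, is listed there as ERO1B and is given separately. Poly-A RNA was sequenced from PC9-BrM3, a human lung cancer cell line derived from PC9 through brain metastases, in routine culture with serum. The labels name no hypoxia treatment. The groups were shPCDH1 cells, whose genotype is given as knockdown of the protocadherin gene PCDH1, and shNC cells, whose genotype is given as wild type. GEO lists 1 sample in each group, and the sources used here do not state how many constructs or clones were used. The question was how gene expression in these cells differs with and without PCDH1 knockdown.

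All fold changes and p-values below are the authors', from their deposited table, which sets a group coded 8 over a group coded 7. No label ties these codes, or the 6 library codes of the table, to shPCDH1 or shNC, so every direction is given as group 8 relative to group 7 and values per library were not used. In the authors' deposited table the targeted gene PCDH1 stood at -1.38 ± 0.14 on the log2 scale, 38.5% of its level in group 7. That value was not used to assign the codes. The figure after each ± is a standard error computed here from the authors' p-value under the assumption of a Wald test, and intervals are 1.96 such errors to either side. A gene is called where the authors' adjusted p is under 0.05. Nothing says that the libraries come from separate cultures, so the p-values measure only their spread, which could be technical. Because levels were not used, the presence of epithelial markers could not be checked by their levels. All 8 epithelial markers had an adjusted p below 1. Of markers with a row, so did 4 of 6 leukocyte, 4 of 6 fibroblast or endothelial and 4 of 5 astrocyte or neural ones. From those lists MS4A1, LYZ, COL1A2, LUM, AQP4 and S100B had no row. Of the epithelial markers, CDH1 was called higher at 0.38 ± 0.11, and the keratins KRT7 at -0.70 ± 0.15 and KRT18 at -0.50 ± 0.17 were called lower. The called markers of those 3 other lists were ITGAM at 5.28 ± 0.85, COL1A1 at 1.04 ± 0.17, PECAM1 at -1.73 ± 0.63 and SLC1A3 at 0.85 ± 0.18, and their part in the results below was not tested.

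Cells sense oxygen through the hypoxia-inducible factors (HIFs), transcription factors made of an oxygen-regulated alpha subunit and the stable partner ARNT. When oxygen is plentiful, EGLN enzymes hydroxylate the alpha subunit on prolines, and the VHL ubiquitin ligase then marks it for degradation, while HIF1AN hydroxylates an asparagine that limits coactivator binding. When oxygen falls, HIF dimers bind a short core sequence near their target genes and raise genes for angiogenesis, mitophagy, pH control and collagen modification, and they also raise some of their own inhibitors. Many of these genes respond to other signals as well, and in lung cancer several are studied for their part in invasion and vessel growth.

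More of these genes were higher than lower in group 8. In the authors' deposited table, 16 of 37 were called higher and 4 lower, and 17 had no call. The called share was 54.1%, with 43.2% called higher and 10.8% called lower. Over all 27655 genes, 14.1% were called, 6.78% higher and 7.28% lower. The adjusted p is 1 for 9653 genes of that background, whereas all 37 hypoxia-response genes are protein-coding and have an adjusted p below 1. Among the 13609 genes that are protein-coding and whose adjusted p is below 1, 26% were called, 12.7% higher and 13.4% lower. The share called higher among the hypoxia-response genes was therefore above the background on both counts, and the share called lower was close to it. These genes were chosen with earlier results of these data known, so the excess was not tested. Their median log2 fold change was 0.38, beside 0.0048 for those protein-coding genes and 0.0013 for all genes. A fold change above 0 was listed for 26 of the 37, or 70.3%. The share was 50.1% of all genes and 50.4% of those protein-coding genes.

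The changes were moderate. STC1, at 4.54-fold higher, and NDRG1, at 2.44-fold higher, were the only called members past a doubling, and all 4 called lower kept between 64.3% and 75.1% of their group 7 level. Called members that were higher ran from 0.38 (HIF1AN) to 2.18 (STC1) on the log2 scale, with a median of 0.74. The interval of 7 called members lay wholly beyond 0.5 in size.

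**Figure D1:**
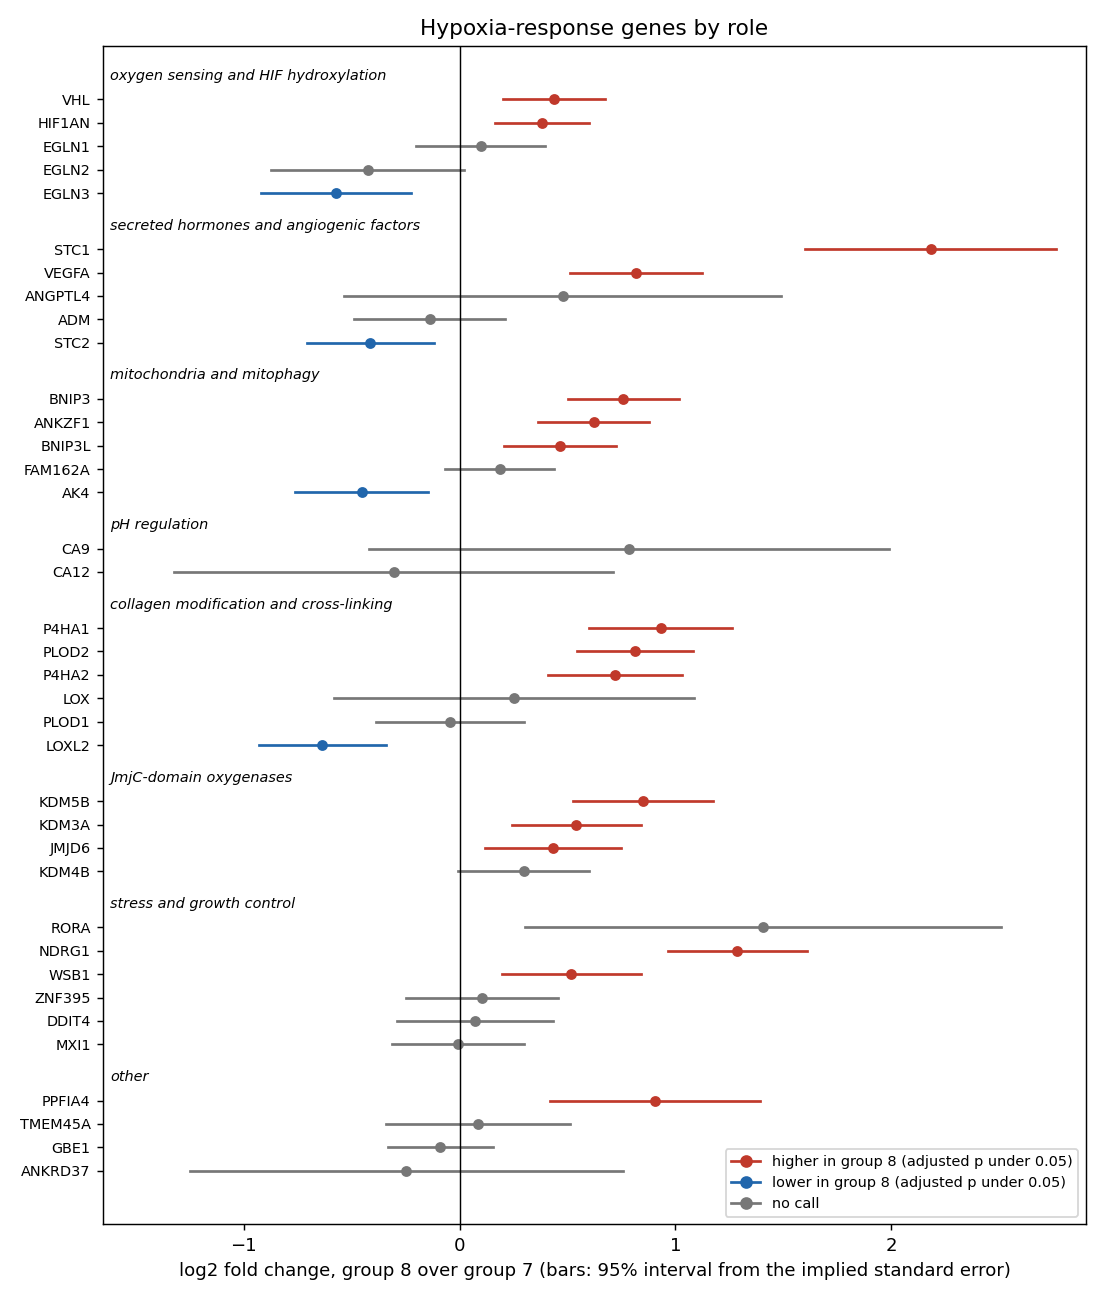
Log2 fold change of group 8 over group 7 (horizontal axis) for the 37 hypoxia-response genes, grouped by role, with the fold change as a point and its 95% interval from the implied standard error as a bar. The 16 genes called higher are red, the 4 called lower blue and the 17 with no call grey. STC1 lies farthest to the right at 2.18, and the lower calls fall between -0.64 and -0.41.

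The promoters of 6 called members are shown because HIF acts through a DNA sequence that can be looked for there. They belong to the 3 higher and 3 lower called members with the smallest adjusted p among those with an entry in the promoter table that could be printed. Each is the 250 bases before the RefSeq transcription start, on GRCh38.p14, printed 5′ to 3′ on the gene's strand. Capitals mark every HIF core, ACGTG or GCGTG read on either strand, with overlapping matches joined.
PLOD2, higher in group 8, chr3:146161185-146161434, minus strand: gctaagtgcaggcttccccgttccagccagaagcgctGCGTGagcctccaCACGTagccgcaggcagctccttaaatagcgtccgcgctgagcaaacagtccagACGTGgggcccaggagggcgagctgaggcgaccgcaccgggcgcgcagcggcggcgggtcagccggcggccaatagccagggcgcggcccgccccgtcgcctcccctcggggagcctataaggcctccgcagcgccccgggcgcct
BNIP3, higher in group 8, chr10:131981924-131982173, minus strand: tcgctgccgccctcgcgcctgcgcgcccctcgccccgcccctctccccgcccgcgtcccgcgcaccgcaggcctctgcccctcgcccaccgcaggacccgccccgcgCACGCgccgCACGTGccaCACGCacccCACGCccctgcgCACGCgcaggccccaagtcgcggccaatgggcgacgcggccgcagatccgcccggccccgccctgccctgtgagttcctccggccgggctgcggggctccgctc
P4HA1, higher in group 8, chr10:73096867-73097116, minus strand: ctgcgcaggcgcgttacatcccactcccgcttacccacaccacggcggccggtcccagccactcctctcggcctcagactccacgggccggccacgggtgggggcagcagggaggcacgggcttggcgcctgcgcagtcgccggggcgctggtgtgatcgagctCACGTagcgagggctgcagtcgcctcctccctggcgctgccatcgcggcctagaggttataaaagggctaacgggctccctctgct
EGLN3, lower in group 8, chr14:33951075-33951324, minus strand: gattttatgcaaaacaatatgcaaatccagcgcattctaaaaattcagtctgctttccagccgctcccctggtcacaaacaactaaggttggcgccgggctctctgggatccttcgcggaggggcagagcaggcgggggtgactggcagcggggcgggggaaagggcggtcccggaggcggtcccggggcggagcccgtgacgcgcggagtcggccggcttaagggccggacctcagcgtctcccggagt
AK4, lower in group 8, chr1:65147302-65147551, plus strand: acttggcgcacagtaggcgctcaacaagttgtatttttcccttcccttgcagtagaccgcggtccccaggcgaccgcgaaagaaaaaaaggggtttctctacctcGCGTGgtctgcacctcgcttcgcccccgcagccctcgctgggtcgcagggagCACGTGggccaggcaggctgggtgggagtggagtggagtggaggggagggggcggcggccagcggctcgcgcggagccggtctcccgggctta
STC2, lower in group 8, chr5:173328415-173328664, minus strand: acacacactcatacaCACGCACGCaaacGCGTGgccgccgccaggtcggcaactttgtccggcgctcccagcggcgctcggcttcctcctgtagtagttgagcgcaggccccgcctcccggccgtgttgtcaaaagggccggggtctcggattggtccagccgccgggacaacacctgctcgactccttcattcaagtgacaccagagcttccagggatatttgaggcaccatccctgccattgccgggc

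The BNIP3 stretch held 5 HIF cores, at positions -143 to -104 from the start. One of them is the palindromic E-box CACGTG, which contains the HIF core on both strands. PLOD2 held 3 cores and P4HA1 had 1. Among the lower genes, AK4 had 2, one of them an E-box, STC2 had 2 and EGLN3 none. Overlapping matches that were joined count as 1 core, and 1 core of STC2 is a joined stretch of 9 bases. Cores were thus present in the printed stretch of genes that moved in either direction. AK4 has 4 windows in the table, and the one nearest the deposited gene start is shown. The RefSeq start of EGLN3 lies 511700 bases inside the deposited gene, whose annotated span is much longer.

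Of the 37 genes, 28 had promoter windows in the RefSeq table, reaching from 250 bases before to 50 bases after the start. The 9 without one were NDRG1, STC1, VEGFA, VHL, ANKZF1, BNIP3L and JMJD6, all called higher, LOXL2, called lower, and ZNF395, with no call. They include the gene with the smallest adjusted p, NDRG1, and that with the greatest fold change, STC1. In 23 of these 28 genes, or 82.1%, at least 1 window held a HIF core (Wilson 95% interval 64.4 to 92.1%, counting error only). The share was 69% of the 10695 such protein-coding genes that had a window, which lies within that interval, and 52.4% of all 27305 genes in the table. Median GC content was 67.3% in the hypoxia-response genes, 65.3% in those protein-coding genes and 58.3% in all genes of the promoter table. Every HIF core contains the letters CG, whose median count per window was 29, 26 and 14 in that order. The shares were not adjusted for this. By call, a core was found in 7 of 9 genes called higher, 2 of 3 called lower and 14 of 16 with no call. Cores were thus found in genes of each call. The genes with no core in any window were EGLN3, HIF1AN, P4HA2, RORA and TMEM45A. As with EGLN3, the only RefSeq start of some lay well inside the deposited gene. The distance was 601789 bases for RORA, 68224 for P4HA2 and 6871 for HIF1AN, so other starts of these genes were not searched. Measured per window, 81.1% of 37 windows of the hypoxia-response genes held one, beside 59.5% of the 15619 windows of those protein-coding genes and 48.4% of all 35116 windows. The E-box CACGTG was present in 7 of the 28 genes, or 25%, beside 12.3% of the protein-coding genes. The AP-1 site TGANTCA was present in 2, or 7.14%, beside 7.33%. The NF-kB motif was present in 1, CA9, which is 3.57% beside 17.6%. These matches describe letters in short windows, and HIF also binds at distances that the windows do not cover.

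**Figure D2:**
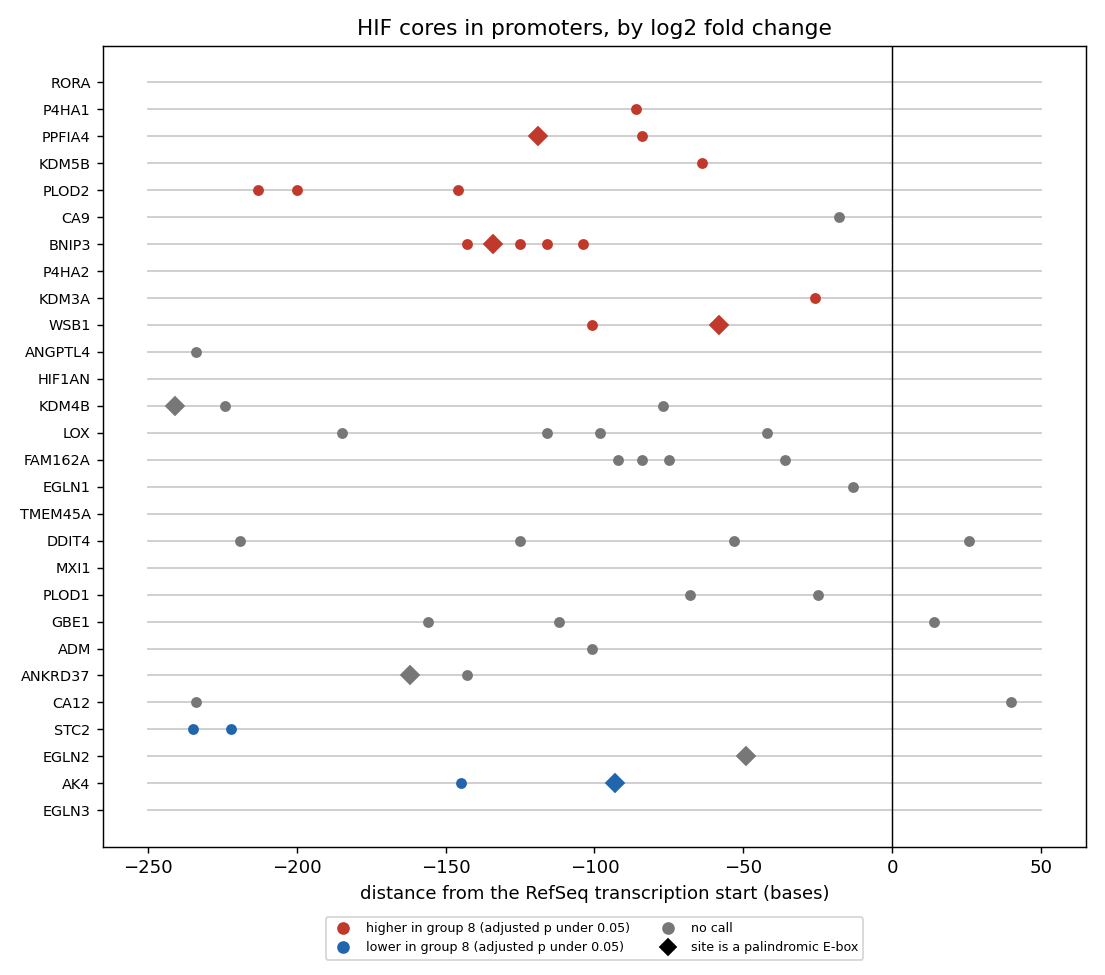
Position of HIF cores in the promoter of 28 hypoxia-response genes, as distance in bases from the RefSeq transcription start (horizontal axis), with genes ordered down the page by log2 fold change. Only the window nearest the deposited gene start is drawn for each gene, diamonds mark cores that are E-boxes, and colour gives the call. Cores occur at the top, middle and bottom of the order, and the 5 cores of BNIP3 stand close together.

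Genes of the oxygen sensor itself moved in both directions. VHL, the substrate receptor of the ubiquitin ligase that removes HIF alpha, had 0.44 ± 0.12 and an adjusted p of 0.00259 in the authors' deposited table, 1.35-fold higher. HIF1AN, the asparagine hydroxylase, had 0.38 ± 0.11 with an adjusted p of 0.00511. EGLN3, a HIF prolyl hydroxylase that is itself a HIF target in many cells, was lower at -0.57 ± 0.18, or 67.3% of its group 7 level, with an adjusted p of 0.00911. Its relatives had no call. EGLN2 had -0.42 ± 0.23, and EGLN1, usually the main HIF prolyl hydroxylase, had 0.097 ± 0.15 with an interval from -0.20 to 0.39. Differences between the 3 EGLN genes were not tested.

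The secreted factors included the gene with the greatest fold change of the 37. STC1, a stanniocalcin with paracrine roles (ENSG00000159167, chromosome 8, 23841915 to 23854807), had 2.18 ± 0.30 and an adjusted p of 1.24e-11 in the authors' deposited table. VEGFA, the principal angiogenic growth factor, was 1.76-fold higher at 0.82 ± 0.16, with an adjusted p of 4.23e-06. STC2, the other stanniocalcin, was lower at -0.41 ± 0.15 with an adjusted p of 0.0311, so that the pair was called in opposite directions. Neither of the other secreted factors was called. ADM, a vasodilator peptide widely used as a hypoxia marker, had -0.14 ± 0.18 and an interval from -0.49 to 0.21. ANGPTL4, an inhibitor of lipoprotein lipase, had 0.48 ± 0.52, an interval too wide to place it.

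Of 5 genes of mitochondria and mitophagy, 3 were called higher and 1 lower. The called share was 80%, beside 14.1% of all genes and 26% of protein-coding genes whose adjusted p is below 1. BNIP3, a mitophagy receptor on the outer mitochondrial membrane (ENSG00000176171, chromosome 10, 131966455 to 131982013), had 0.76 ± 0.13 and an adjusted p of 2.18e-07 in the authors' deposited table. Its paralog BNIP3L, also a mitophagy receptor, had 0.46 ± 0.13 with an adjusted p of 0.0041. ANKZF1, which releases stalled peptides in ribosome quality control, had 0.62 ± 0.13 with an adjusted p of 4.31e-05. These 3 rose by between 1.38-fold and 1.69-fold. AK4, an adenylate kinase of the mitochondrial matrix, was lower at -0.45 ± 0.16 with an adjusted p of 0.0232, or 73% of group 7. FAM162A, a mitochondrial protein linked to hypoxic cell death, had 0.19 ± 0.13 and no call.

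Of 6 genes of collagen modification and cross-linking, 3 were called higher and 1 lower. That is 66.7% called, beside 14.1% of all genes and 26% of protein-coding genes whose adjusted p is below 1. P4HA1 and P4HA2 encode alternative catalytic subunits of collagen prolyl hydroxylase. In the authors' deposited table P4HA1 had 0.93 ± 0.17 with an adjusted p of 1.08e-06, and P4HA2 had 0.72 ± 0.16 with an adjusted p of 9.91e-05. PLOD2, which hydroxylates lysines in collagen telopeptides (ENSG00000152952, chromosome 3, 146069440 to 146163653), was 1.76-fold higher at 0.81 ± 0.14, with an adjusted p of 1.05e-07. PLOD1, the helical lysyl hydroxylase, had -0.044 ± 0.17 and an interval from -0.39 to 0.30. LOXL2, which oxidises lysines for cross-linking, was lower at -0.64 ± 0.15 with an adjusted p of 0.000319, or 64.3% of group 7. LOX, the founding lysyl oxidase, had 0.25 ± 0.42 and no call.

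Among the JmjC-domain oxygenases, enzymes that use oxygen and include histone demethylases, 3 of 4 were called higher and none lower. This 75% compares with 14.1% of all genes and 26% of protein-coding genes whose adjusted p is below 1, called in either direction. KDM5B, a demethylase linked to slow-cycling tumour cells, had 0.85 ± 0.17 and an adjusted p of 7.6e-06 in the authors' deposited table. KDM3A had 0.54 ± 0.15 with an adjusted p of 0.00348. JMJD6, which hydroxylates lysines in splicing factors, had 0.43 ± 0.16 with an adjusted p of 0.0353, close to the threshold. KDM4B had 0.30 ± 0.15, an adjusted p of 0.166 and an interval from -0.0065 to 0.60.

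In the group of stress and growth-control genes, 2 of 6 were called, both higher. That share of 33.3% stands beside 14.1% of all genes and 26% of protein-coding genes whose adjusted p is below 1. NDRG1, a stress-responsive gene often used to mark hypoxic tumour cells (ENSG00000104419, chromosome 8, 133237171 to 133302022), had the smallest adjusted p of all 37, 4.09e-13 in the authors' deposited table, at 1.29 ± 0.16. WSB1, a ubiquitin ligase adaptor, had 0.52 ± 0.16 with an adjusted p of 0.011. RORA, a nuclear receptor, lay just outside the threshold at 1.40 ± 0.56 with an adjusted p of 0.0558. The remaining genes were near 0. DDIT4, an inhibitor of mTOR signalling, had 0.071 ± 0.18, MXI1, an antagonist of MYC, -0.006 ± 0.16 and ZNF395, a zinc finger factor, 0.10 ± 0.18.

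The last 4 genes are of unlike function. PPFIA4, a liprin of presynaptic scaffolds that responds to hypoxia, was 1.87-fold higher at 0.90 ± 0.25, with an adjusted p of 0.00246 in the authors' deposited table. GBE1, the glycogen branching enzyme, had -0.091 ± 0.12, TMEM45A, a membrane protein, 0.087 ± 0.22 and ANKRD37, a small ankyrin-repeat protein, -0.25 ± 0.51, none of them called. ERO1B, outside the count of 37, was higher at 0.91 ± 0.23 with an adjusted p of 0.000998. CA9 and CA12, the membrane carbonic anhydrases that regulate pH around tumour cells, had 0.78 ± 0.61 and -0.30 ± 0.52 with no call, so neither rise nor fall could be read for this pair.

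The 17 genes without a call were of 2 kinds. For 8 of them (ADM, DDIT4, EGLN1, FAM162A, GBE1, MXI1, PLOD1 and ZNF395) the whole 95% interval lay within 0.5 of 0 on the log2 scale, under the Wald assumption. For the other 9 the interval reached past 0.5. It was widest for CA9, from -0.42 to 1.99, and wide also for RORA, ANGPTL4, CA12, ANKRD37 and LOX, whose implied standard errors ran from 0.42 to 0.56. The implied standard error over all 37 had a median of 0.16 and a lowest value of 0.11, for HIF1AN.

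**Figure D3:**
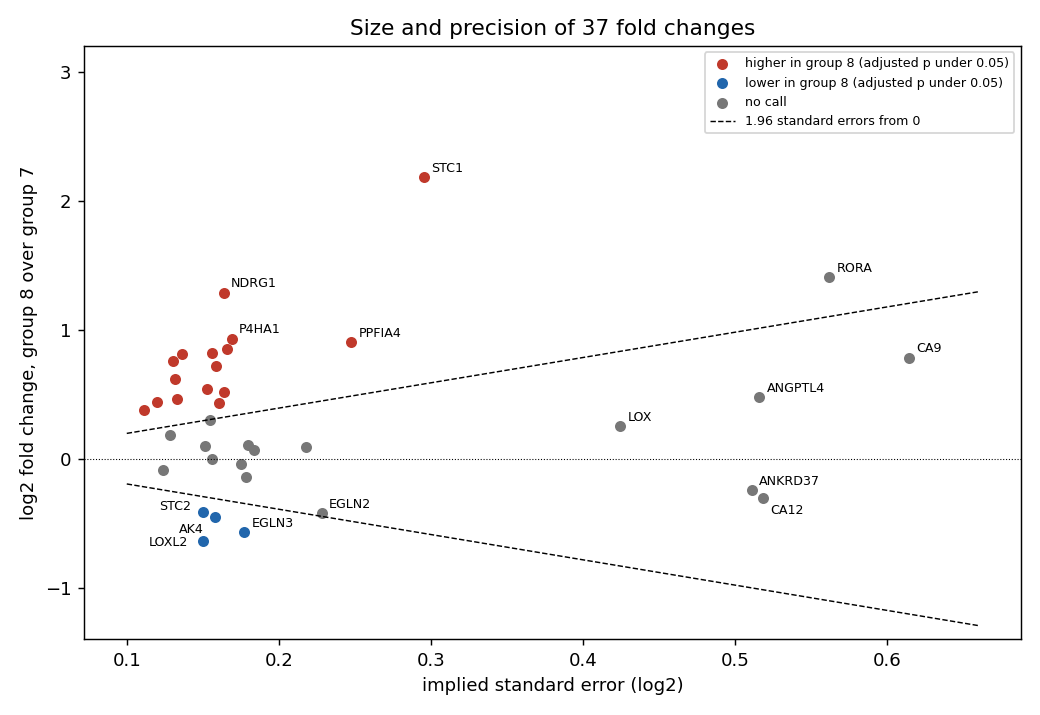
Log2 fold change of group 8 over group 7 (vertical axis) against the implied standard error on the log2 scale (horizontal axis) for the 37 hypoxia-response genes, coloured by call, with dashed lines at 1.96 standard errors from 0. The genes RORA, CA9, ANGPTL4, CA12, ANKRD37 and LOX, stand apart at standard errors of 0.42 and above, and none of them is called.

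Paralogs set side by side gave a mixed picture. P4HA1 and P4HA2 were both called higher, as were BNIP3 and BNIP3L. STC1 and STC2 were called in opposite directions. In PLOD1 and PLOD2 and in LOX and LOXL2, 1 gene of the pair was called. None of these within-pair differences was tested.

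Strand is not marked by the library protocol as the labels describe it, so reads of overlapping genes cannot be told apart by strand. Exons of 12 of the 37 genes overlap an exon of another listed gene in GENCODE release 29. The overlap covered a large share of exon bases in 3 of them, none called. It was 38.5% in CA9, with ARHGEF39 on the opposite strand, a gene that was itself higher at 0.98 ± 0.18 in the authors' deposited table. ANKRD37 shared 35.2% with UFSP2 on the opposite strand, and ZNF395 shared 34.9% with FBXO16 on its own strand. In called genes the overlap with any single other gene was at most 7.66%, in BNIP3L with PNMA2.

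Of 19 measured HIF subunits and regulators, 2 were called higher and 0 lower, or 10.5% called, beside 14.1% of all genes and 26% of protein-coding genes whose adjusted p is below 1. Of the 19, 18 had an adjusted p below 1, and the median log2 fold change was -0.041. At an unadjusted p under 0.05, 5 were higher and 0 lower, and the share of all genes at that threshold was not computed. At the same threshold the other hypoxia targets described below had 13 higher and 6 lower. The glycolysis genes had 6 higher and 7 lower. With no share of all genes beside them, these unadjusted counts are not read as results about the lists. ARNT, the shared HIF partner, had 0.70 ± 0.14 with an adjusted p of 8.59e-06 in the authors' deposited table. SIAH2, a ubiquitin ligase that targets EGLN proteins, had 0.90 ± 0.16 with an adjusted p of 3.6e-07. HIF1A, the alpha subunit controlled mainly at the protein level, had 0.41 ± 0.18 and no call at an adjusted p of 0.0782, and EPAS1, which encodes HIF-2 alpha, had -0.15 ± 0.12. Messenger RNA does not report the stability of HIF alpha protein.

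A second list, of other hypoxia targets, held more higher than lower calls. Like the first, it was chosen with earlier results of these data known, so it is no independent check. Of 38 measured, 11 were called higher and 3 lower, 28.9% and 7.89%, with a median of 0.37. Over all genes 6.78% were called higher and 7.28% lower, and over protein-coding genes whose adjusted p is below 1 12.7% and 13.4%, so the share called lower was near that of all genes. In this list 32 genes had an adjusted p below 1. EFNA1, an ephrin ligand, was 3.97-fold higher at 1.99 ± 0.14, with an adjusted p of 4.28e-40 in the authors' deposited table. The EGFR ligand TGFA had 0.97 ± 0.16, and PNRC1, a nuclear receptor coactivator, 0.93 ± 0.16. MIR210HG, the host transcript of the hypoxia-induced microRNA miR-210, had 2.22 ± 0.48 with an adjusted p of 5.91e-05. The lower genes were BHLHE41, a circadian repressor, at -1.12 ± 0.14, CAV1, the caveolin of membrane invaginations, at -0.41 ± 0.12 and SAP30, a corepressor subunit, at -0.74 ± 0.28.

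The glycolytic arm of the hypoxia response was divided between both directions. Of 24 measured glycolysis genes, 6 were called higher and 6 lower, 25% in each direction, beside the same 6.78% and 7.28% of all genes and 12.7% and 13.4% of those protein-coding genes. Of the 24, 23 had an adjusted p below 1. Their median was -0.13 and their mean 0.085, so median and mean differed in sign. That mean includes SLC2A3 at 2.31 ± 3.37, the highest and least precise value of the list, with no call. The mean without SLC2A3 was not computed. In the authors' deposited table PFKFB4, a regulator of fructose bisphosphate levels, had 0.9997 ± 0.19, the aldolase ALDOC 1.09 ± 0.21 and the enolase ENO2 0.82 ± 0.16. The lower genes were led by SLC2A1, a widely expressed glucose transporter, at -0.80 ± 0.13, followed by GPI at -0.58 ± 0.13 and GAPDH at -0.42 ± 0.11, both glycolytic enzymes. The difference between the arms was not tested.

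**Figure D4:**
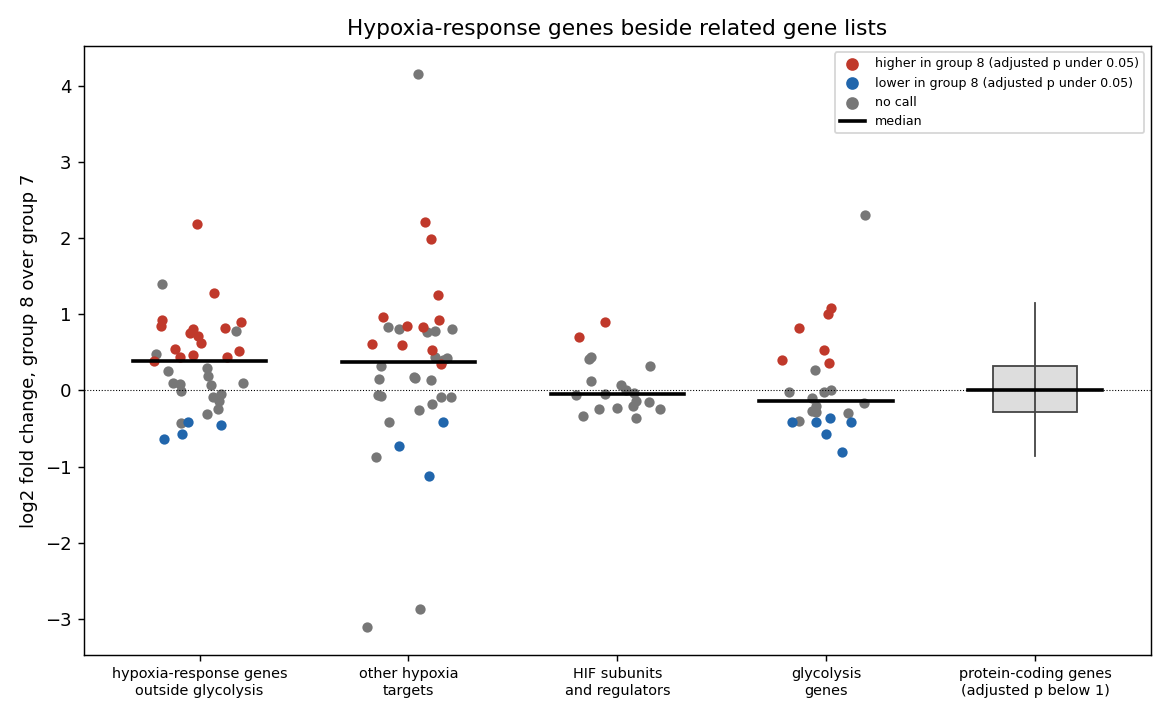
Log2 fold change of group 8 over group 7 (vertical axis) for 4 gene lists, each gene a point coloured by call and the median a black line, beside protein-coding genes whose adjusted p is below 1 drawn as a box from the 25th to the 75th percentile with a line from the 5th to the 95th. The medians of the hypoxia-response genes outside glycolysis (0.38) and of the other hypoxia targets (0.37) lie above those of the HIF subunits and regulators (-0.041) and the glycolysis genes (-0.13). Points beyond 3 in size have no call.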

How the data were processed

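Poly-A RNA libraries of PC9-BrM3 cells (shPCDH1 and shNC, 1 GEO sample each) were processed by the authors. The tools named, per the submitters' processing notes, are DESeq2 1.20.0, featureCounts 1.5.0-p3, HISAT2 2.0.5 and CASAVA, with no role or order. A genome build is not given in the sources used here. The 37 members found all have the same positions in GENCODE release 29 (GRCh38), so coordinates are on that build.

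The log2 fold change of group 8 over group 7, the p-value and the adjusted p-value of each of 27655 genes were deposited by the authors, per the file headers. Gene start, end and length are other deposited annotation columns. An adjusted p of 1 is listed for 9653 genes and no p for 2. The 20 columns of values per library or group were not used, because no label ties their codes to a sample, so depth is not given, no count model was fitted and no library was left out.

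Computed here across all genes were implied standard errors, counts of calls, Benjamini-Hochberg adjustments and promoter motifs (Python 3.11.15, pandas 2.3.3, scipy 1.17.1). An implied standard error is the absolute log2 fold change over the normal quantile of the two-sided p. The standard errors and adjustments were tried on data simulated under the same Wald assumption, which cannot test that assumption. The motif search was tried on a made-up sequence. Promoter sequences are RefSeq's on GRCh38.p14. Every called member is named, as are the 3 genes with the smallest adjusted p in each direction of the related lists. MIR210HG, HIF1A and EPAS1 were named after their values were seen. The members and lists were chosen with earlier results of these data known. Protein identity between paralogs was not computed. Alternatives were other thresholds, minimum folds, adjustments, centring, means and shorter promoters. Adding ERO1B and leaving out genes with overlapping exons were chosen after seeing the data.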

Additional observations from a re-analysis of the deposited data

How the results depend on the processing

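Fold changes kept their sign when centred on the protein-coding median of 0.017, in all 37 genes. With Benjamini-Hochberg adjustment over all p-values in the table, 36 of 37 genes kept their side of the threshold and JMJD6 lost its call. Adjustment over protein-coding genes alone changed none of the 37. At an adjusted p under 0.01, AK4, JMJD6, STC2 and WSB1 lost their calls, so 14 were higher and 2 lower, and at 0.10 RORA gained one. With a minimum absolute log2 fold change of 0.5, 12 were higher and 2 lower, and with a minimum of 1, 2 were higher and 0 lower. Leaving out the 12 genes with overlapping exons gave 12 higher and 3 lower among the fewer genes kept, with a median of 0.30. Adding ERO1B gave 17 higher and 4 lower with a median of 0.41. The mean was 0.35 in place of the median of 0.38. With 100 bases before the start, 60.7% of the 28 genes held a HIF core, beside 49.3% of protein-coding genes, because the stretch searched is shorter. In the related lists, adjustment over all p-values left 4 glycolysis genes higher and 5 lower, and 9 other hypoxia targets higher and 2 lower. That adjustment left 1670 higher and 1799 lower over all genes. An adjusted p under 0.01 left 4 glycolysis genes higher and 3 lower, and 0.10 gave 4 HIF subunits and regulators higher. A minimum of 0.5 left 4 glycolysis genes higher and 2 lower, beside 6 and 6 as reported. A minimum of 1 left 0 HIF subunits and regulators higher, 3 other hypoxia targets higher and 1 lower, and 1 glycolysis gene higher and 0 lower. Over all genes, 1222 were higher and 1325 lower at 0.01, and 2361 and 2573 at 0.10, beside 1875 and 2012 as reported. A minimum of 0.5 left 1536 higher and 1460 lower over all genes, and a minimum of 1 left 647 and 431. DESeq2, a filter on low counts and leaving out replicates were not run, since values per library were not used. No paired analysis was possible because no replicate numbers tie the libraries. Depth per library was not used, so which wide intervals come from low counts was not tested.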

Other observations

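Over all called protein-coding genes with a promoter window, a HIF core was held by 66.6% of 1349 called higher and by 72.4% of 1436 called lower. The NF-kB motif was held by 19.6% of those called higher and 16.8% of those called lower.

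Of the other hypoxia targets, 6 are listed at an adjusted p of 1, and 3 of these have extreme but poorly fixed fold changes in the authors' deposited table. They are the chemokine receptor CXCR4 at 4.16 ± 1.95, the IGF-binding protein gene IGFBP1 at -3.11 ± 1.51 and ANG, which encodes angiogenin, at -2.87 ± 1.35. They were picked after their values were seen.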
